A study of Mus musculus with 2 samples.

Results

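The replication-dependent histone genes are the gene copies that supply histone protein while DNA is being copied. They were taken as the protein-coding genes of GENCODE M21, an annotation of the mouse genome build mm10, whose symbols start with Hist1h, Hist2h, Hist3h or Hist4. This rule found 67 of 21938 protein-coding genes outside the mitochondrial genome and used no measured value. By histone type they comprised 6 H1, 18 H2A, 18 H2B, 12 H3 and 13 H4 genes. The Hist1 cluster on chromosome 13 held 54 of them, in a first block of 23 and a second block of 31, the Hist2 cluster on chromosome 3 held 10, the Hist3 cluster on chromosome 11 held 2, and a single Hist4 gene lay on chromosome 6.

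H2A, H2B, H3 and H4 are the core histones around which DNA is wrapped, and H1 is the linker histone that binds where DNA enters and leaves that core. Their genes lie in dense clusters, mostly lack introns, and are transcribed chiefly in S phase, when Npat, a coactivator phosphorylated by cyclin E with Cdk2, collects at the clusters. Their mRNAs end in a stem-loop bound by Slbp instead of a poly(A) tail, so tissues with dividing cells, such as a young spleen that still makes blood cells, are where these genes are known to be active.

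Open chromatin was measured by DNase-seq, in which nuclei are cut with the nuclease DNase I and the cut ends are sequenced, so that accessible DNA gives peaks. The series held 1 group, whole spleen of male mice aged 14 days from the F1 cross B6CASTF1/J, with 2 replicates of 1 library each. Per the labels, replicate 1 was prepared from 3 males and replicate 2 from 1 male, and both libraries carry the same donor entry, so the spread between them may be partly technical. No group was treated or mutated, so no contrast between conditions exists and no test over samples was possible. Each value is given for both libraries, and the members are set beside all protein-coding genes.

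Each library came with a shorter and a larger list of peaks, and the list with fewer total bases was the main one. It held 48286 peaks over 9.46 Mb in replicate 1 and 28837 peaks over 5.72 Mb in replicate 2, and the read depth is unknown. Each peak carries a signal value, the authors' own, on a scale that the sources used here do not name and that need not be the same in both libraries. In whole tissue a smaller share of cells with open chromatin and less opening per cell cannot be told apart. As a check of the tissue, a promoter peak in both libraries was found at 4 of 5 B cell markers, 5 of 5 red cell precursor markers and 2 of 5 T cell markers. The count was 1 of 5 for macrophage markers, 0 of 5 for hepatocyte markers and 2 of 5 for neuron markers. The share over all protein-coding genes was 51.1%. T cell markers thus had no more peaks than neuron markers, and macrophage markers had fewer. This check therefore does not separate every spleen cell type from cells foreign to spleen.

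Most histone genes had an open promoter in spleen. A main-list peak within 1000 bases of an annotated start site was found in both libraries at 56 of the 67 members (83.6%), and at 51.1% of all protein-coding genes. The count was 59 in replicate 1, where 56.7% of all genes had a peak, and 56 in replicate 2, where 51.4% did. A peak in replicate 1 alone was found at 3 members, Hist1h4n, Hist1h3d and Hist1h1t, beside 5.59% of all genes, and no member had a peak in replicate 2 alone. The larger lists raised the count in both libraries to 59, beside 56.1% of all genes. The median promoter signal, the mean of both libraries' strongest peak with 0 for a gene without a peak, was 5.67 over the members and 0.991 over all genes. Among genes with a peak in both libraries the median signal was 6.02 for the members and 6.42 for all genes, and 25 of the 56 members lay above the latter.

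Annotated start sites served several members poorly. The annotated start was the start codon itself at 11 members and lay under 10 bases from it at 21. It lay 433 bases before the start codon at Hist1h3f, 1828 bases at Hist1h1d and 35168 bases at Hist1h2be. A window of 1000 bases also lets a gene take a stronger neighbour's peak in these dense clusters. Signals of single members below are therefore those of the strongest peak within 250 bases of the gene's own start codon, a choice made after the values were seen. By this measure 55 members had a peak in both libraries, 4 in replicate 1 alone and 8 in neither. The same measure gave 29.5% of all genes, many of which have a start codon far from the start site. The members' peaks were 51 distinct peaks in replicate 1 and 48 in replicate 2, and 50 members had a replicate 1 peak that held the start codon.

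**Figure D1:**
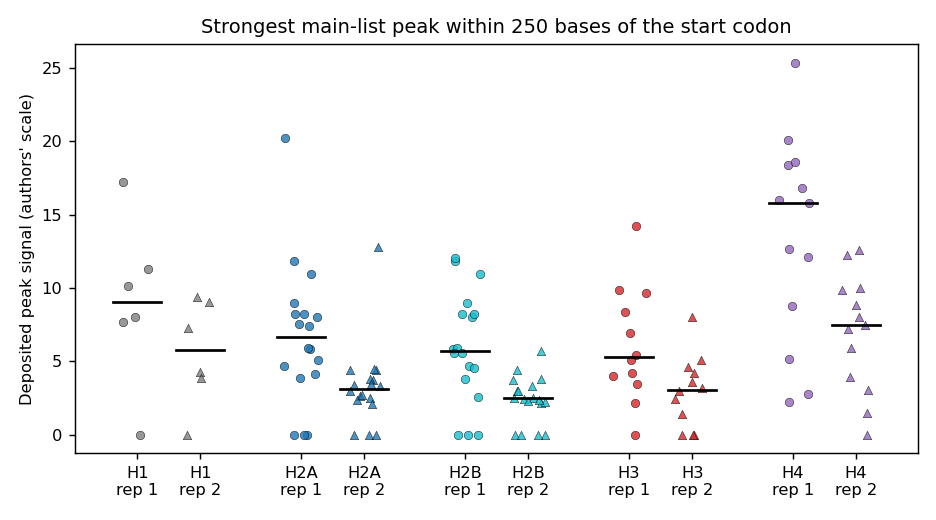
Deposited peak signal on the authors' scale (vertical axis) of the strongest main-list peak within 250 bases of the start codon, by histone type and replicate. Each point is 1 gene, with genes without a peak at 0, and bars are medians over all genes of the type. H4 genes reach 25.4 in replicate 1 and 12.6 in replicate 2 and have the highest median in both libraries.

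H4 genes carried the strongest peaks. All 13 had a peak at the start codon in replicate 1 and 12 did in replicate 2. Over the 12 peaked in both, the median signal was 15.9 in replicate 1 and 7.77 in replicate 2, above the medians of the other types in both libraries. Hist1h4c (chr13:23697635-23698454, minus strand), the highest of all members, had 25.4 in replicate 1 and 12.6 in replicate 2, a mean of 19.0 ± 9.02 (SD, n = 2). Hist1h4i had 20.1 and 12.3, Hist1h4a 18.6 and 9.99, and Hist1h4h 18.4 and 8.87. Hist2h4 had 16.8 and 8.05, and Hist4h4, the gene that stands alone on chromosome 6, had 15.8 and 9.86. These genes were high in both libraries, each with the larger value in replicate 1. The lowest H4 peaks were those of Hist1h4m, at 2.80 and 1.49, and Hist1h4n, at 2.23 in replicate 1 with no main-list peak in replicate 2. Both genes lie in copied sequence, described below, which limits this ranking. The strongest peak within 1000 bases lay over an annotated start site at 13 of 13 peaked H4 genes in replicate 1 and 12 of 12 in replicate 2. Over all genes this share was 74.7% and 76.3%.

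The H4 genes also shared a short sequence. The letters GGTCCG, the core of an element known from H4 promoters, were searched on both strands from 250 bases before to 50 after the annotated start. They were found at 12 of 13 H4 genes and at 9.6% of all protein-coding promoters, while Hist1h4a had no match. Among the other types the matches numbered 2 at H3 genes, 1 at H2B genes and none at H2A or H1 genes. The H4 matches lay 49 to 79 bases before the start codon. In the 30-base windows of mm10 printed here 5′ to 3′ along each gene's strand, from H4 genes with high and low signal, the capitals mark that core.
Hist1h4c, chr13:23698495-23698524, minus strand: aacgctctagttttcaaccaGGTCCGcaga
Hist1h4i, chr13:22041399-22041428, minus strand: gacgtttctgttttcactccGGTCCGcaag
Hist2h4, chr3:96263370-96263399, minus strand: gcgctttcagttttcaatctGGTCCGatcc
Hist4h4, chr6:136804454-136804483, minus strand: ctccttgctgttttcaatcaGGTCCGctcc
Hist1h4b, chr13:23756923-23756952, plus strand: ccacttgaagttctcaaccaGGTCCGataa
Hist1h4j, chr13:21734996-21735025, plus strand: tccctgcaggttctcatttcGGTCCGcccg
Hist1h4m, chr13:21811679-21811708, plus strand: tgagctcctgttttcactccGGTCCGcaag
The core lay in a footprint, a short protected stretch called by the authors inside open chromatin and widened here by 5 bases, at 12 of these 12 genes in replicate 1 and at 9 in both libraries. The 3 genes without such a footprint in replicate 2 were Hist1h4j, Hist1h4n and Hist1h4h, of which the last had a strong peak in that library. Without widening, the count in both libraries fell to 5. For no motif, here or below, were matches in footprints counted over all promoters, so such counts have no background beside them.

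The upstream sequence of Hist1h4i shows how this core lies among other matches. It covers the 150 bases before the annotated start (chr13:22041363-22041512, minus strand), and the capitals mark motif matches in footprints of both libraries, the core and a GC box on the opposite strand.
Hist1h4i: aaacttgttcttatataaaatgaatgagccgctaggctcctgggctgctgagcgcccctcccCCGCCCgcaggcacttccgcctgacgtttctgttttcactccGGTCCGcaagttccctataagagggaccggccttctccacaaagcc
H4 genes differed from the other core histone genes in their other matches too. A GC box (GGGCGG, either strand) was found at 10 of 13 H4 genes and 43.0% of all promoters. A CCAAT box (CCAAT, either strand), the letters bound by NF-Y, was found at 4 of 13 H4 genes, beside 18 of 18 H2A, 18 of 18 H2B, 11 of 12 H3 and 5 of 6 H1 genes and 39.0% of all promoters.

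H1 genes had the next strongest peaks. Hist1h1c (chr13:23738808-23740367, plus strand) had a signal of 17.2 in replicate 1 and 9.42 in replicate 2, a mean of 13.3 ± 5.52 (SD, n = 2). Hist1h1e had 11.3 and 9.08, Hist1h1a had 8.0 and 3.90, and Hist1h1b had 7.72 and 4.25. Hist1h1d had no peak near its annotated start in either library, but a peak at its start codon (chr13:23554921-23555200 in replicate 1) with a signal of 10.1 and 7.30. Hist1h1t, the linker histone of testis, had no peak at its start codon in either library, and its annotated start had a signal of 1.09 in replicate 1 from a peak 391 bases away. The order of the 5 somatic genes was not the same in both libraries, with Hist1h1c highest in each.

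The H1 box (AAACACA), an element known from linker histone promoters, was found at 4 of 6 H1 genes and 6.40% of all promoters, and at 5 of 6 in the 300 bases before the start codon. In the 150 bases before the start of Hist1h1c (chr13:23738658-23738807, plus strand) it was the single match in footprints of both libraries, and it is in capitals.
Hist1h1c: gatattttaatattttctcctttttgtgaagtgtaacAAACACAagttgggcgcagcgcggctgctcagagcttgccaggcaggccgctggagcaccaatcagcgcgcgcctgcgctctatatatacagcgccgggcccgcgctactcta
Hist1h1c was also the single member with the H1 box in footprints of both libraries.

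H3 genes had moderate peaks, in both libraries at 9 of 12 genes by start codon. The highest in both libraries was Hist1h3e, with 14.2 and 8.0. By mean signal Hist1h3h, with 9.65 and 4.24, and Hist1h3g, with 9.87 and 3.57, came next, but in replicate 2 Hist2h3b, with 5.13, and Hist1h3b, with 4.61, were above both. The lowest peaked in both was Hist1h3i, with 3.49 and 1.42. Hist1h3d had 4.0 in replicate 1 and no main-list peak in replicate 2, where the larger list had 1.17 and the lowest false discovery rate within 250 bases was 0.0037. Hist1h3a shows why the start codon was used, since its strongest peak within 1000 bases was that of Hist1h4a, with 18.6 and 9.99, while its own had 4.19 and 2.45. Hist2h3b likewise had 12.0 and 5.74 within 1000 bases, a value of the neighbouring Hist2h2bb, and 6.96 and 5.13 at its own start codon. Its upstream sequence (chr3:96268504-96268653, plus strand) holds CCAAT on the same strand more than once, and the match in footprints of both libraries is in capitals.
Hist2h3b: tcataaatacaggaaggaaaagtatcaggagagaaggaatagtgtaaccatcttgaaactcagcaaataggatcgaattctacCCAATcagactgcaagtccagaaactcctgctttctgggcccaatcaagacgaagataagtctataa

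H2A and H2B genes had medians over the genes peaked in both of 7.54 and 3.42 for H2A and 6.99 and 2.73 for H2B in replicates 1 and 2. Those of H3 were 6.96 and 3.57, so H3 was the lowest type in replicate 1 and H2B in replicate 2. H2A was peaked in both libraries at 15 of 18 genes and H2B at 14 of 18. The exception was Hist2h2aa2 (chr3:96239749-96240276, minus strand), which had 20.2 and 12.8, a mean of 16.5 ± 5.23 (SD, n = 2) and the second highest of all members. Its inverted neighbour Hist2h2aa1 had 7.39 and 4.42. Next among H2B genes came Hist2h2bb with 12.0 and 5.74 and the pair Hist1h2bf and Hist1h2ad, which share a peak of 11.8 and 4.44. The lowest were Hist3h2ba, with 2.57 and 2.14, and Hist1h2bm, with 3.81 and 2.24. In the 150 bases before the start of Hist2h2aa2 (chr3:96240277-96240426, minus strand), matches in footprints of both libraries, in capitals, were CCAAT on each strand and a TATA box.
Hist2h2aa2: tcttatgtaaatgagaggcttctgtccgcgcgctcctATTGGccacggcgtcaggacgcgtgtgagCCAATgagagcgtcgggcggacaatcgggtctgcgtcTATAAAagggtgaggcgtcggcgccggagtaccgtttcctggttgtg

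H2A and H2B genes were mostly arranged head to head. There were 13 pairs of members with start sites on opposite strands within 1000 bases, heads together. Of these 12 joined an H2A with an H2B gene, with 176 to 306 bases between start sites (median 259.5). The other pair was Hist1h2bh with Hist1h3f, 660 bases apart. A main-list peak lay at least in part between the start sites of 9 of the 12 pairs in both libraries. Both genes of each of those 9 took the same strongest peak within 1000 bases in each library. That shared peak was not always the one between the start sites. It lay outside them at Hist1h2ae/Hist1h2bg in both libraries and at Hist2h2ac/Hist2h2be in replicate 2. In the other 3, Hist1h2bq/Hist1h2ao, Hist1h2ap/Hist1h2br and the testis pair Hist1h2ba/Hist1h2aa, neither library had a peak between the start sites. Of the 36 H2A and H2B genes, 24 were in such a pair. All 12 unpaired ones had a promoter peak within 1000 bases in both libraries, as did 18 of the 24 paired ones. By start codon the unpaired Hist1h2bb had a peak in replicate 1 alone. The median mean signal within 1000 bases, with 0 for no peak, was 4.93 for paired and 3.92 for unpaired genes. Both groups include peaks of neighbours. The unpaired Hist2h2ab had 7.71 by this measure and 3.285 by start codon, and the paired Hist1h2bg had 4.27 and 3.57.

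The octamer (ATGCAAAT, either strand), read by the POU factor encoded by Pou2f1, was found at 7 of 18 H2A and 8 of 18 H2B promoters, at no H1, H3 or H4 promoter and at 1.57% of all promoters. With the start codon window added, 16 members matched through 11 distinct sites, of which 5 counted for both genes of a pair and the other 6 lay at unpaired genes. The octamer read ATTTGCAT along the gene at 9 of 9 H2B genes and ATGCAAAT at 7 of 7 H2A genes. It lay in a footprint at 5 members in replicate 1 and at none in replicate 2. All letters between the start sites of Hist2h2ac, on the minus strand, and Hist2h2be, on the plus strand, are printed along the plus strand (chr3:96220881-96221118). Here every motif match is in capitals, which are TTTATA for the TATA box of Hist2h2ac, CCAAT on both strands and the octamer.
Hist2h2ac/Hist2h2be: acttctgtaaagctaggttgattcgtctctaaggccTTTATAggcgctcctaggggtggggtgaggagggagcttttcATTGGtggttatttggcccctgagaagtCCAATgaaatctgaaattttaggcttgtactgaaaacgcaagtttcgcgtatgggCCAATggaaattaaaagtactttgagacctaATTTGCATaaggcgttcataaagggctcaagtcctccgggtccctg
The shared peak of this pair had a signal of 11 in replicate 1 and 4.47 in replicate 2. In replicate 2 that peak (chr3:96220701-96220860) lay outside the printed letters. At the start codon of Hist2h2be, replicate 2 had 2.31, from another peak.

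**Figure D2:**
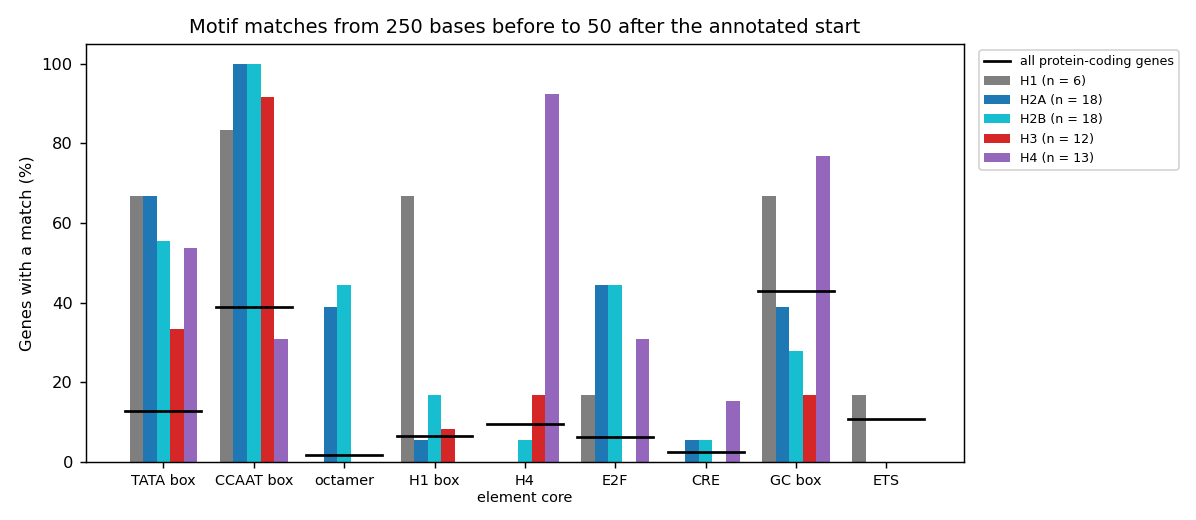
Share of genes of each histone type with a match of each motif from 250 bases before to 50 after the annotated start (vertical axis, percent of genes), with black lines for all 21938 protein-coding genes. The CCAAT box stands at 18 of 18 H2A and H2B genes, the octamer at H2A and H2B genes alone, and the H4 element core at 12 of 13 H4 genes.

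Across types, the TATA box (TATAAA, either strand) was found at 37 of 67 members (55.2%) and 12.6% of all promoters, and in footprints of both libraries at 21 members. The E2F letters (TTTNNCGC, either strand) were found at 21 members (31.3%) and 6.31% of all promoters, among them 8 H2A, 8 H2B, 4 H4 and 1 H1 gene and no H3 gene. The CRE (TGACGTCA) was found at 4 members (5.97%), beside 2.43% of all promoters. The GC box was near the background, at 41.8% of members beside 43.0%. The ETS letters (CCGGAAG, either strand) were found at 1 member (1.49%) and 10.8% of all promoters. Of 319 matches over all members, 8 overlapped a match of another motif. As with the octamer, a TATA box, E2F or CRE site between the genes of a divergent pair could count for both genes. The TATA box of Hist1h2ak, for example, also counted for Hist1h2bn on the opposite strand. Hist1h2ag and Hist1h2bj matched the CRE through the same site. These counts are therefore of members and not of distinct sites. A match describes letters and not binding.

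Footprints were found within 250 bases of an annotated start in both libraries at 55 members (82.1%), beside 51.8% of all genes. The median number there was 7 in replicate 1 and 5 in replicate 2 over the members, and 2.5 and 2 over all genes. At the 55 members with a start-codon peak in both libraries, 376 footprints were counted in replicate 1, of which 210 overlapped a footprint of replicate 2. A footprint near both genes of a pair was counted for each gene here. The overlap was not counted over all genes. Of the distinct footprints within 250 bases of members' start codons, 118 of 356 in replicate 1 (33.1%) and 78 of 270 in replicate 2 (28.9%) held a whole match of a searched motif. The remaining footprints held none of the 9 motifs. The share of footprints with a match was not counted over all genes.

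Among the 56 members with a promoter peak in both libraries, the position covered most often was 33 bases before the annotated start in replicate 1, where 87.5% were covered, and 25 bases after it in replicate 2, where 85.7% were. Over all genes peaked in both libraries the highest cover was 71.9% and 68.9%. At 300 bases before the start, 32.1% of members in replicate 1 and 35.7% in replicate 2 were covered, beside 9.11% and 8.72% of all genes. At 100 bases after the start 48.2% and 60.7% of members were covered, beside 27.4% and 27.7% of all genes. At 200 bases after it the members had 8.93% and 14.3%, and all genes 15.8% and 16.2%. Members were thus covered more often 300 bases upstream, at about the distance of a paired gene's start, and 100 bases into the gene, and no more often than other genes 200 bases into it. The strongest peak lay over a start site at 72.9% of peaked members in replicate 1 and 66.1% in replicate 2, both below the shares of all genes given above.

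**Figure D3:**
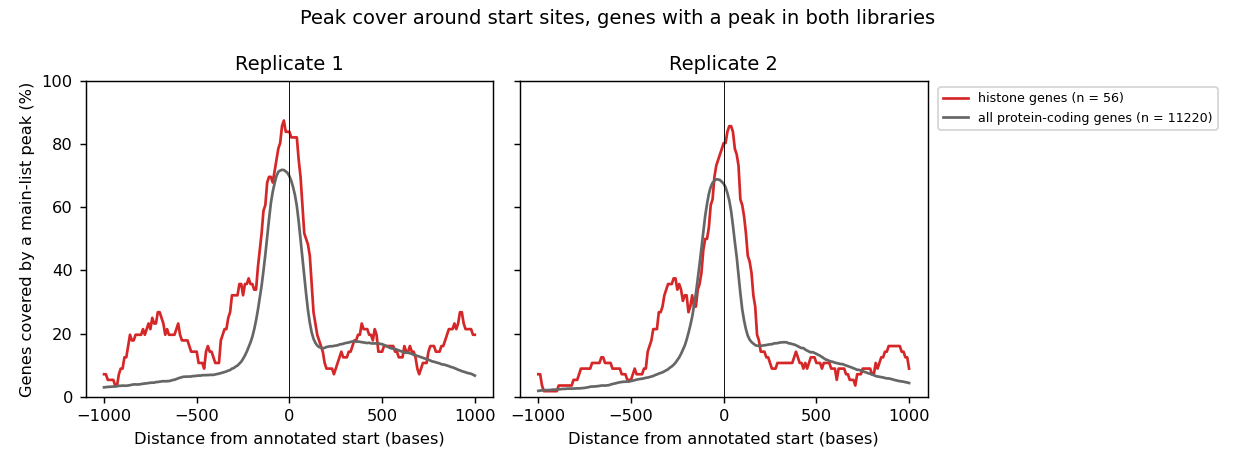
Share of genes covered by a main-list peak (vertical axis, percent) by distance from the annotated start in bases (horizontal axis, positive into the gene), for 56 members and 11220 protein-coding genes with a promoter peak in both libraries. The members reach 87.5% in replicate 1 and 85.7% in replicate 2 and have an upstream shoulder, with 32.1% and 35.7% covered 300 bases before the start.

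The first Hist1 block, 328 kb long, held 54 main-list peaks in replicate 1 and 40 in replicate 2, and the second block, 404 kb long, held 58 and 38. Of these, 30 and 22 in the first block and 43 and 31 in the second lay within 1000 bases of a member's start. The Hist2 cluster, 50.3 kb long, held 19 and 14 peaks, of which 18 and 14 lay that near to a member's start. A peak in both libraries at the start codon was found at 44 of 54 Hist1, 8 of 10 Hist2 and both Hist3 members and at Hist4h4.

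**Figure D4:**
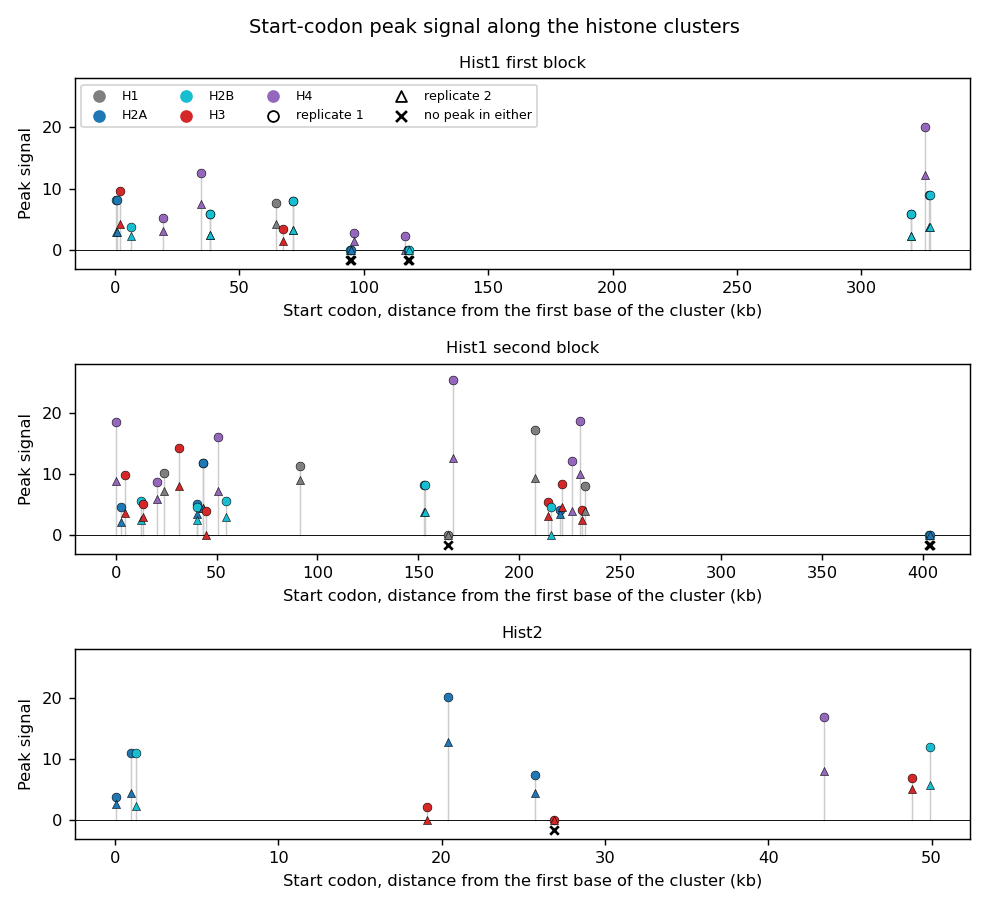
Signal of the strongest main-list peak within 250 bases of each start codon (vertical axis, authors' scale) against the position of the start codon in kb from the start of the block (horizontal axis), for both Hist1 blocks and Hist2. Circles are replicate 1, triangles replicate 2, and crosses mark the 8 members with no peak in either library. The highest gene, Hist1h4c with 25.4 and 12.6, lies within the second block, and the crosses gather at duplicated copies and testis genes.

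The 8 members without a start-codon peak in either library were 3 testis genes and 5 duplicated genes. The testis genes Hist1h1t, Hist1h2ba and Hist1h2aa had no base listed in the deposited false discovery rate files within 250 bases of their starts. Almost every word of 36 bases around them was found once in mm10, 100% at Hist1h1t and Hist1h2aa and 97.2% at Hist1h2ba. The others were Hist1h2bq, Hist1h2ao, Hist1h2ap, Hist1h2br and Hist2h3c1, which also had no listed base. Of the words of 36 bases within 250 bases of their starts, 0% were found once in mm10 at the first 4 and 7.73% at Hist2h3c1. Over all members the median was 70.0%, and over all genes 100%. No source used here gives the read length or the rule for reads with several places, so a closed promoter and unplaced reads cannot be told apart at these 5 genes.

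In mm10 the pairs Hist1h2bq/Hist1h2ao and Hist1h2ap/Hist1h2br lie in inverted copies of 10523 identical bases (chr13:21801258-21811780 and chr13:21832162-21842684). As mm10 holds the letters of a single strain and the mice were an F1 cross, copies on the other parent's chromosomes may differ and were not examined. The letters between the start sites of the second pair (chr13:21833508-21833742) are shown along the minus strand, and the first pair's copy carries the same letters. Capitals mark every motif match, of CCAAT on both strands and of E2F. No TATA box or octamer match was found at these 4 genes.
Hist1h2ap/Hist1h2br: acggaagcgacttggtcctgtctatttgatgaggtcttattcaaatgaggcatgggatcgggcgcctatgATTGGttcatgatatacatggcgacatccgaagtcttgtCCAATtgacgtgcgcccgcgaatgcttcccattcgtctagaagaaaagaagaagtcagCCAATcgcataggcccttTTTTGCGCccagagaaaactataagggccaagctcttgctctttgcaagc

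The false discovery rate files, which list runs of bases under 0.05, listed part of the bases or none inside the long identical copies. In the 10523-base copies, 100 and 101 bases were listed in replicate 1 and 97 and 78 in replicate 2. The other copies examined were those of Hist2h2aa1 and Hist2h2aa2, identical over 663 bases, and of Hist2h3c1 and Hist2h3c2, over 684 bases. A stretch of 460 bases shared by Hist1h4m and Hist1h4n was also examined, as was a shorter 1 of 84 bases at Hist1h4j and Hist1h4k. In both libraries 201 bases were listed at Hist2h2aa2 and 101 at Hist2h2aa1. In replicates 1 and 2 the listed bases numbered 159 and 19 at Hist2h3c2, 101 and 101 at Hist1h4m, and 100 and 85 at Hist1h4n. At Hist1h4j and Hist1h4k all 84 bases were listed in both libraries. Listed shares were not counted over other sequence of like length. The deepest listed base in any copy lay 101 bases from an edge. This depth was read from these same data, so the lack of listed bases beyond it is its definition and not a separate result. In the 10523-base copies 10321 bases lay farther than this depth from both edges. Hist2h3c1 had no listed base in either library, so its copy shows no depth. The peak of Hist2h2aa2 used above had 74 of its 160 bases inside its identical copy, at an edge. That of Hist2h2aa1 had 84 of 180 bases inside in replicate 1. Whether this affects the signals and ranks of these 2 genes was not tested.

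The weak peaks of Hist1h4m and Hist1h4n lay around 1 base that differs between their copies. The 10523-base and the 460-base copies are parted by 1 differing base, at position 21811781 on chromosome 13 near Hist1h4m and 21832161 near Hist1h4n, 3 bases before each start codon. In replicate 1 each gene's peak covered 80 bases to the left of that base and 79 to its right. In replicate 2 the peak of Hist1h4m covered 76 and 79, and Hist1h4n had no main-list peak, with 0.846 in the larger list. Whether the identical bases affect the signals of 2.80 and 2.23 in replicate 1 was not tested. Their low rank among H4 genes should be read with that limit.

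Copies elsewhere lay in the coding letters more than upstream. Counting the words of 36 bases in the 250 bases before the start, 53 members had 100% found once, 4 had between 20% and 100%, and 10 had under 20%. Among the 53, a start-codon peak was found in both libraries at 48, in replicate 1 alone at 2 and in neither at 3, the testis genes. Among the 4 it was found in both libraries at 4. Among the 10 it was found in both at 3, in replicate 1 alone at 2 and in neither at 5. Over all protein-coding genes with under 10% of words found once within 250 bases of the start, 11 of 824 (1.33%) had a peak there in both libraries, against 47.7% of those with at least 80%. From 10% to under 80%, the count over all genes was 223 of 1754 (12.7%). Among the members the count was 2 of 9 under 10% and 35 of 36 from 10% to under 80%. At 80% or more it was 17 of 22 members (77.3%). These last counts, over members and all genes, use the annotated start and not the start codon. The members at 80% or more without such a peak were the 3 testis genes, Hist1h1d and Hist1h3f. Hist1h1d and Hist1h3f had peaks in both libraries at their start codons.

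Signals were higher in replicate 1 at every member peaked in both libraries. Within 1000 bases of a start, the log2 ratio of replicate 1 to replicate 2 was above 0 at 56 of 56 members. Over all genes peaked in both libraries its lower quartile was 0.50, so most of those genes were also above 0. The exact share over all genes was not counted. The strongest peaks of the 2 libraries overlapped at 54 of them, a share not counted over all genes. The median ratio was 1.07, against 0.70 over all genes peaked in both, a difference of 0.36. Of the 56 members, 47 lay above the median of all genes. By type the median ratio was 1.27 for H2A, 1.22 for H2B, 0.91 for H3, 0.91 for H4 and 0.87 for H1. By start codon the ratio of 2.25 at Hist2h2be sets different peaks of the 2 libraries against each other, and on the peak shared with Hist2h2ac it was 1.30. Apart from that gene it was highest at Hist1h4b (1.62), Hist3h2a (1.49), Hist1h3g (1.47) and the pair Hist1h2bl and Hist1h2ai (1.46). It was lowest at Hist3h2ba and Hist1h2ab (0.26 each), Hist1h1e (0.32), Hist2h3b (0.44) and Hist1h1d (0.47). Where a peak counted only for its nearest start site, the difference from all genes was 0.21 and not 0.36. With 1 library from 3 males and 1 from a single male, this difference between libraries has no replicate check. The ranking of members was alike in both, with a Spearman rho of 0.853 over the 55 members, which share the libraries and in part the same peaks.

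**Figure D5:**
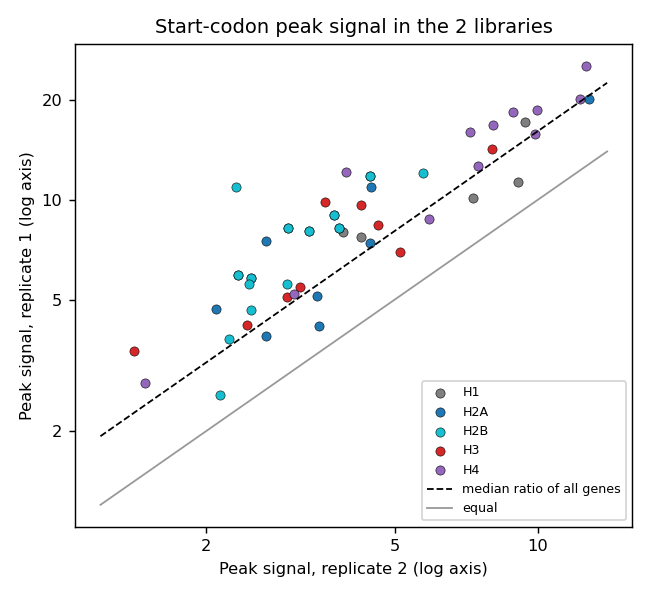
Start-codon peak signal in replicate 1 (vertical, log axis) against replicate 2 (horizontal, log axis) for the 55 members with a peak in both libraries, coloured by histone type. The grey line marks equal values and the dashed line the median ratio of all genes. All points lie above the grey line, 45 of 55 lie above the dashed line, and genes of a pair can share a point.

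A promoter peak in both libraries was found at 22 of 22 genes for expression and processing of histone mRNA, at 13 of 13 histone chaperone genes and at 9 of 12 genes of replication-independent variants, beside 51.1% of all genes. The highest of the first list were Nfya, which encodes a subunit of the CCAAT-binding factor NF-Y, with a signal of 34.3 in replicate 1 and 18.8 in replicate 2, and Ccne1, which encodes cyclin E1, with 27.8 and 19.7. The highest chaperone genes were Daxx, a chaperone of a replication-independent H3 variant, with 24.5 and 14.0, and Chaf1b, a subunit of CAF-1, with 20.7 and 13.7. The highest variant genes were H2afv, with 24.1 and 12.0, and H2afx, with 23.2 and 11.7. Of the 3 variant genes without a peak in both libraries, H1fx had 1.80 in replicate 1 and a peak in the larger list alone in replicate 2. The other two were H2afy2 and H1foo, the linker histone of oocytes, neither with a main-list peak in either library. The median signal within 1000 bases was 11.1 for the expression list, 11.8 for the chaperones and 8.33 for the variants, with 0 for no peak, beside 5.67 for the 67 members.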

How the data were processed

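DNase-seq was made from 2 spleen libraries of 1 group. Genome positions are on mm10, per the labels. The sources used here name no aligner, peak caller, footprint caller or read length. In the deposited peak lists each peak has a signal value of the authors' own. A deposited file per library gives runs of bases whose false discovery rate, treated as a p-value in unit, was under 0.05. The footprint lists hold positions with a constant of 0.01 in the column of that p-value unit, so footprints could not be ranked. No counts were given, so depth is unknown and no counting interval is printed.

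The main peak list of each library was the shorter by total bases. A gene's promoter signal was its strongest peak within 1000 bases of any GENCODE M21 start site, or 0, chosen in each library by itself. The start-codon measure, within 250 bases, was added after the values were seen. Sequence, words of 36 and 76 bases on both strands, and motif matches were read from the RefSeq mm10 genome. That genome is of a single strain, so letters, words and copies may differ on the other parent's chromosomes of the F1 mice. Members, lists and motifs were chosen with earlier results of these data known. Genes were named by a rule: the highest and lowest of each type, every member without a peak, and the members of Hist2, Hist3 and Hist4. The rule also took testis genes, members under 80% unique words, extremes of the ratio and divergent pairs. No test over samples was possible with 2 libraries of 1 group, so counts and medians are set beside all protein-coding genes. Promoter assignment, motif search and word counts were tested on simulated data with known answers. Python 3.11.15, NumPy 2.4.6, bedtools 2.31.1 and Matplotlib 3.10.9 were used. Alternatives were other windows, the larger lists, only the gene's 5′ end, nearest start site only, the strongest 50% of peaks, a pseudocount of 1, other motif windows, footprints not widened, and each library left out.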

Additional observations from a re-analysis of the deposited data

How the results depend on the processing

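The count of members with a promoter peak in both libraries was 51 to 59 over the alternatives, and 56 and 59 with either library alone. The median promoter signal was 4.15 to 5.67, and with a single library 3.42 (without replicate 1) to 8.0 (without replicate 2). The difference in log2 ratio from all genes stayed above 0 under every alternative run and moved from 0.36 to 0.21 where a peak counted only for its nearest start site. The count with a footprint in both libraries was 52 to 57. The median share of words found once in mm10 at members was 70.0% with 36 bases and 84.7% with 76 bases.

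Footprint counts of single motifs depended most on the settings. Without widening, members with a motif in footprints of both libraries fell from 16 to 9 for the CCAAT box, from 1 to 0 for the H1 box, from 9 to 5 for the H4 element core, from 8 to 2 for E2F, from 17 to 7 for the GC box and from 1 to 0 for ETS. With a single library the count was 16 to 34 for the CCAAT box, 0 to 5 for the octamer and 2 to 4 for the CRE, each higher in replicate 1. Promoter matches of the GC box went from 28 to 45 in a window from 500 bases before to 100 after the start and to 18 in the 300 bases before the start codon, where 11 lay in footprints. ETS matches went from 1 to 2 in both windows. The cause was not tested, beyond the windows' own lengths. No paired analysis was possible because the series has 1 group and no result comes from a test. The unknown depth, and at duplicated genes the unknown rule for reads with several places, limit what a missing peak shows.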
